A study of Mus musculus with 6 samples.

Results

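The 32 genes described here are ligands, receptors, signal transducers, antagonists and targets of bone morphogenetic protein (BMP) and transforming growth factor beta (TGF-beta) signalling. They were chosen by name from a fixed list, out of 34989 genes with estimated counts. All 32 passed the filter on low counts, as did 16938 genes in all. Handpads, the developing paws of the forelimbs, were taken from C57BL/6 mouse embryos at E14.5 (age in embryonic days), and their messenger RNA was sequenced with a strand-specific kit. The samples were 3 wild-type (WT) and 3 Grhl3-/- (KO) handpads. Grhl3 encodes a DNA-binding protein of the grainyhead family that acts in skin and other surface epithelia. The labels do not say whether a replicate is 1 embryo or a pool, so the error behind each p-value is that among the deposited libraries and could be partly technical. The labels name no other allele or agent, and they do not give the deleted part of Grhl3. In whole tissue, fewer cells of a type and less RNA per cell cannot be told apart.

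BMP and TGF-beta ligands are secreted dimers that bind pairs of type I and type II receptor kinases. BMP receptors phosphorylate Smad1, Smad5 and Smad9, which enter the nucleus with Smad4 and switch on genes such as the Id family. Secreted antagonists hold ligands away from the receptors, and Smad6, Smad7 and Bambi damp the signal at the receiving cell. In the limb the pathway is known for cell death between the digits, for cartilage condensation and joint formation, and for exchange between the surface epithelium and the mesenchyme below it.

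The libraries held 38052692 to 56037639 estimated counts, and each of the 32 genes had between 165 and 12953 counts in every library. Grhl3 itself measured 14.3, 45.7 and 18.5 CPM (counts scaled to library size) in wild-type handpads and 3.11, 2.86 and 2.95 CPM in knockout handpads. All 5 limb mesenchyme markers, Prrx1, Prrx2, Twist1, Pdgfra and Tbx5, were present in every library, at 55.9 CPM or more. Prrx1 and Tbx5 were lower in every knockout than in every wild-type library, while Prrx2, Twist1 and Pdgfra overlapped. None of the 5 passed the test between the genotypes described below. The part of the mesenchyme in the values of the 32 genes was not tested. Wild-type replicate 1 lay apart from the other wild-type libraries on the first principal component, at 24.1 against -37.2 and -40.8, on the side of the knockout libraries (12.6 to 26.2). The second component held 31.5% of the variance, against 33.1% for the first. There wild-type replicate 1 was furthest from the knockout libraries, at 53.3 against -33.7 to -11.8, with the other wild-type libraries at -3.01 and 10.6. Wild-type replicates 2 and 3 had 290 and 341 CPM of Y-linked transcripts, whereas the other 4 libraries had 3.37 to 5.36 CPM. Without wild-type replicate 1, genotype and embryo sex cannot be told apart. In a fit with Y-linked expression as a covariate, the genotype difference therefore rests mainly on wild-type replicate 1 against the knockout libraries.

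None of the 32 genes passed the test between the genotypes. With the edgeR quasi-likelihood test and adjustment over all 16938 genes, 0 of the 32 genes passed a false discovery rate (FDR) of 0.05, against 73 genes or 0.431% of all genes tested (0.348% higher and 0.0827% lower in the knockout). At an unadjusted p under 0.05, 2 of the 32 did, Bmp6 with a lower and Bmp7 with a higher value in the knockout, against 7.22% of all genes. DESeq2, the likelihood ratio test of edgeR and limma-voom also called 0 of the 32. DESeq2 called 1.27% of all genes and the likelihood ratio test 1.54%, while limma-voom called 45 genes in all. At an unadjusted p under 0.05, DESeq2 had 2 of the 32 against 5.69% of all genes, and the likelihood ratio test 1 against 6.65%. Leaving out 1 library at a time gave 0 of the 32 past the FDR, also without wild-type replicate 1 (1.2% of all genes) and without knockout replicate 1 (0.0989%). In those fits 6 and 5 of the 32 had an unadjusted p under 0.05, against 17.4% and 5.07% of all genes. In 4 of the 32 genes the wild-type and knockout libraries did not overlap in CPM, 3 with lower and 1 with higher knockout values, against 12.9% of all genes (6.16% lower and 6.77% higher). With 4 of 32 and 2 of 32, both shares lie near the background, and so does 0 of 32 at the FDR. The median log2 fold change, knockout minus wild-type, was -0.06 over the 32 genes and -0.0045 over all genes. Of the 32 fitted fold changes 10 were positive and 22 negative (68.8%), against 51.2% negative over all genes.

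The intervals of the fold changes show how large a difference these libraries leave room for in the fit with genotype only. The 95% intervals from the same fit, taken gene by gene, lay within 2-fold in either direction for all 32 genes. They lay within 1.5-fold for 25 of the 32. The median interval reached 0.29 on the log2 scale to either side of its fold change. Smad4, the Smad shared by both branches of the pathway, had the interval -0.21 to 0.19, and Acvr1, a type I receptor, -0.14 to 0.25. Msx1, a homeobox target gene, had the interval -0.54 to 0.62, or -31.4% to 53.7%. These intervals do not cover the Y-linked difference between libraries. With Y-linked expression as a covariate Id1 was -0.469, outside its interval of -0.45 to 0.36.

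**Figure D1:**
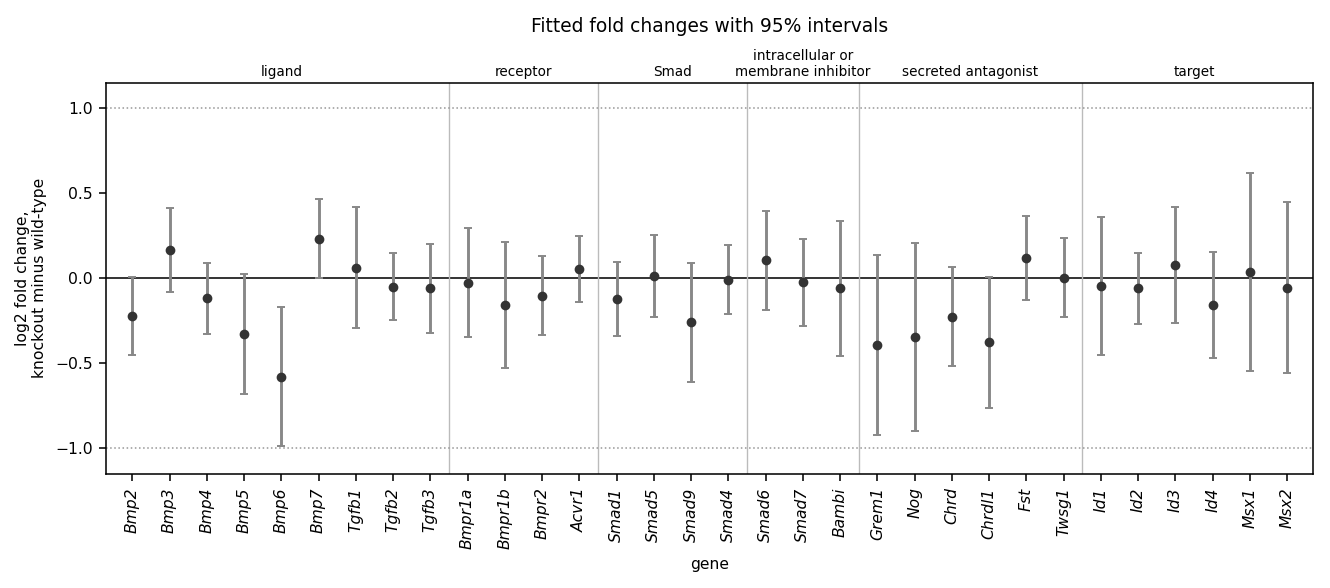
Fitted log2 fold change of each gene, knockout minus wild-type, with its 95% interval from the edgeR fit (3 libraries per group, genes grouped by role, dotted lines at 2-fold). Every interval stays inside the dotted lines, and only those of Bmp6 and Bmp7 leave out 0.

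Per length of transcript, 3 of the Id genes were the most abundant members. In TPM, which corrects counts for transcript length, Id3 was highest with a mean over the 6 libraries of 281 TPM, followed by Id1 at 173 TPM and Id2 at 107 TPM. The Id proteins bind helix-loop-helix factors and keep them off DNA. Msx1 (65.2 TPM), Smad4 (64.6 TPM) and the BMP-binding protein Twsg1 (60.4 TPM) followed. Bmp6 (1.83 TPM), Smad9 (2.17 TPM) and Bmp3 (3.95 TPM) were the lowest. The ligands spanned 1.83 TPM to 41.7 TPM, with Tgfb3 and Bmp4 (36.4 TPM) at the top, and the 6 secreted antagonists spanned 5.44 TPM (Grem1) to 60.4 TPM. Among the type I receptors Bmpr1a, at 46.7 TPM, stood above Bmpr1b, at 7.73 TPM, in every library.

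**Figure D2:**
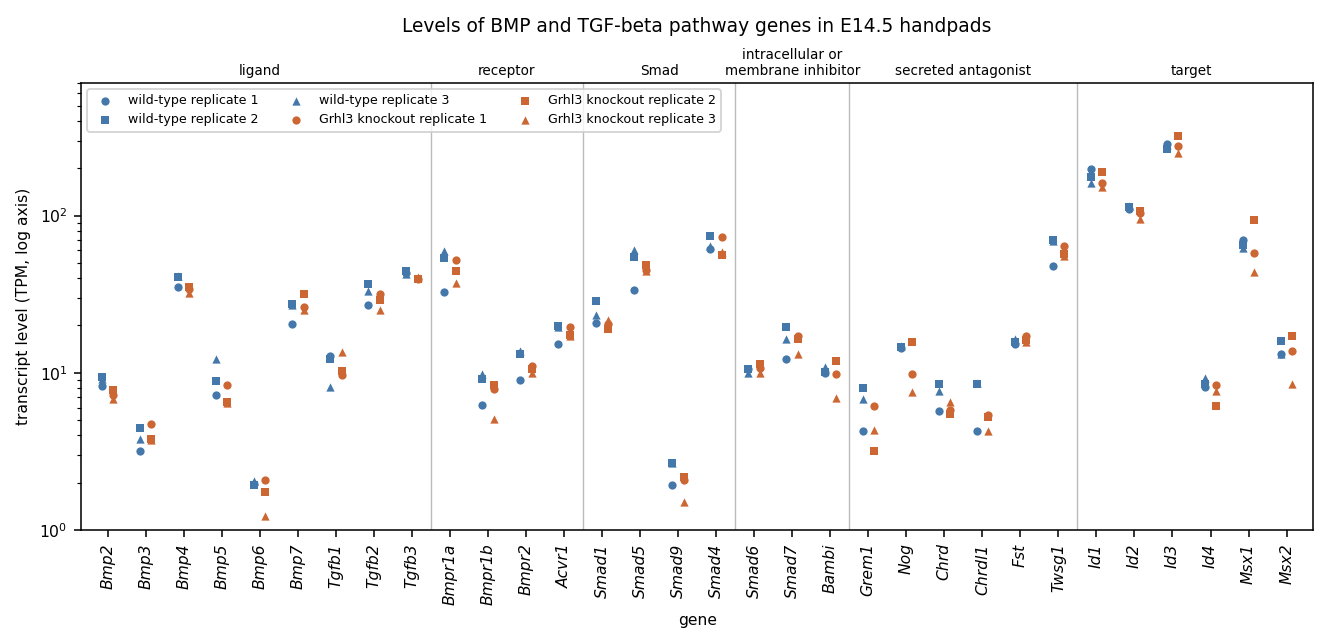
Levels of the 32 genes in TPM on a log axis, grouped by role, with 1 point per library (blue wild-type, orange knockout, shapes for replicates 1 to 3). The genes span 1.83 to 281 TPM in their means, and points of both genotypes mix in most genes.

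The promoter windows of the members were searched for the grainyhead motif, because Grhl3 was the gene removed, and for motifs that Smads bind. RefSeq windows of 250 bases before to 50 bases after the start (GRCm38.p6) were found for 21 of the 32 genes, in 25 windows. None was found for Bmp2 and Bmp7, among others. The grainyhead motif AACNGGTT, searched on both strands, was in 0 of the 25, against 2.09% of all 32851 windows of that length, and its form AACCGGTT, which lies within it, in 0.146%. With shares that low, 0 of 25 lies near the background. The GC-rich motif GGCGCC, which Smad1 and Smad5 bind and which reads the same on both strands, was in 9 of the 25 windows, from 8 genes, against 11.9% of all windows. The palindrome GTCTAGAC, the classical Smad4-binding element, was in 1 of the 25, that of Smad6, against 0.213% of all. Promoters of 1 gene overlap in part, so windows are not independent, and a match is a stretch of letters, not a bound site.

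The stretches below, of 60 bases each, show those letters in place. Smad6 is shown for its palindrome, Id2, Id4, Smad9 and Grem1 for a GGCGCC in a target, a transducer and an antagonist, and Bmp6, which had the largest fold change, for comparison. Capitals mark the motif, sequences are from RefSeq on GRCm38.p6, and each is written 5′ to 3′ in the direction of its gene.
Smad6 (chr9:64022056-64022115, minus strand): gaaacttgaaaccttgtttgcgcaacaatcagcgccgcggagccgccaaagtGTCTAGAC
Id2 (chr12:25096283-25096342, minus strand): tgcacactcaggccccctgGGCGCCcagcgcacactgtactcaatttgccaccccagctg
Id4 (chr13:48260941-48261000, plus strand): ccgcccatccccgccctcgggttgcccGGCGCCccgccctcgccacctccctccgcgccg
Smad9 (chr3:54755504-54755563, plus strand): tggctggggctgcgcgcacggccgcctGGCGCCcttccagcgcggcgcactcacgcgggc
Grem1 (chr2:113758694-113758753, minus strand): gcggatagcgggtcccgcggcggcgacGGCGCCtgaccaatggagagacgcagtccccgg
Bmp6 (chr13:38345656-38345715, plus strand): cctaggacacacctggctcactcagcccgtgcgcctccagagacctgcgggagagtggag
The Smad6 palindrome begins 4 bases before the start and runs over it, and the GGCGCC of Grem1 and Smad9 begin 78 and 51 bases before theirs. The window of Bmp6 held none of the 4 motifs.

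Among the ligands, Bmp6 had the largest fold change of the 32 genes, and its values were lower in the knockout. Bmp6 belongs to the same BMP subgroup as Bmp5 and Bmp7 (ENSMUSG00000039004.6, chromosome 13, 38345107 to 38500302, mm10). It measured 6.87, 5.30 and 5.82 CPM in wild-type handpads and 4.49, 3.48 and 4.08 CPM in knockout handpads. All 3 knockout values lay below all 3 wild-type values. The log2 fold change was -0.58 (SE 0.18, adjusted p = 0.402, edgeR), so the gene did not pass the test. Its interval ran from -0.99 to -0.17. In the authors' deposited table Bmp6 is the only one of the 32 genes listed, with a log2 fold change of -0.58, a p-value of 0.0118 and an FDR of 0.344. That table holds 941 genes with p-values up to 0.0506.

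The Bmp6 difference depended on how transcript length was treated, and there on few counts of 1 short transcript. In TPM the wild-type libraries measured 1.97, 1.94 and 2.06 and the knockout libraries 2.07, 1.73 and 1.23, so the groups overlapped. A transcript of 594 bases received 5.37 and 5.39 estimated counts in knockout replicates 1 and 2, and 0 to 0.245 counts in the other 4 libraries. Those few counts made 31.6% and 38.5% of the Bmp6 TPM of these libraries, against 0% to 1.75% elsewhere. With effective length offsets, which are weighted by the same TPM and so carry those counts too, the log2 fold change was -0.20 (adjusted p = 0.982, edgeR). It was -0.80 with Y-linked expression as a covariate.

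Bmp7, Bmp2 and Bmp4 also had groups that did not overlap in CPM, with smaller differences. In TPM the Bmp7 groups overlapped, at 20.4, 27.3 and 26.9 TPM in wild-type and 26.1, 31.6 and 25.1 TPM in knockout handpads. The Bmp2 and Bmp4 groups did not overlap in TPM either. Bmp2 was at 8.21, 9.4 and 9.06 TPM in wild-type and 7.22, 7.71 and 6.84 TPM in knockout handpads. Bmp4 was at 35.3, 40.6 and 41.4 TPM against 34.2, 34.9 and 32.1 TPM. Bmp7, a ligand made in limb epithelium and mesenchyme, measured 73.7, 77.9 and 77.8 CPM in wild-type and 82.7, 102 and 84.9 CPM in knockout handpads. Knockout replicate 2 stood highest, and without it the log2 fold change of Bmp7 was 0.13 instead of 0.23 (SE 0.10, adjusted p = 0.685, edgeR). Bmp2, a ligand of the digit and interdigit mesenchyme, measured 28.7, 25.9 and 25.3 CPM against 22.0, 24.1 and 22.3 CPM in the knockout (log2 fold change -0.22, SE 0.10, adjusted p = 0.713, edgeR), and its value was -0.34 with the Y-linked covariate. Bmp4, made in both epithelium and mesenchyme of the limb, measured 51.3, 45.2 and 46.1 CPM against 44.5, 44.6 and 42.2 CPM. Its wild-type and knockout ranges were separated by less than 1 CPM.

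Epithelial markers were higher in the knockout libraries, except Trp63, whose groups overlapped. Of the 5 epithelial markers Epcam, Cdh1, Krt14, Krt5 and Trp63, the first 4 were higher in all knockout than in all wild-type libraries, and 0 of 5 passed the FDR with the quasi-likelihood test. Trp63 measured 64.5, 93.0 and 71.1 CPM in wild-type and 89.4, 79.2 and 90.7 CPM in knockout handpads. The authors' deposited table lists Epcam, Krt14 and Krt5 with an FDR of 0.00222, 1.49e-05 and 0.0145, and Cdh1 with 0.11. The summed level of the 5 markers was 1030 to 1760 CPM in wild-type and 2080 to 2840 CPM in knockout handpads, with none at 0. The part of this shift in the values of Bmp7 and the other ligands was not tested.

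The remaining ligands had overlapping groups in CPM. Bmp5, a relative of Bmp6 and Bmp7, measured 27.3, 26.5 and 36.9 CPM in wild-type and 27.6, 21.9 and 22.8 CPM in knockout handpads. Wild-type replicate 3 stood highest and knockout replicate 1 lay inside the wild-type range (log2 fold change -0.33, SE 0.16, adjusted p = 0.75, edgeR). The Bmp5 value was -0.16 without wild-type replicate 3 and -0.17 with the Y-linked covariate. Bmp3, a ligand known to oppose other BMPs, measured 21.3, 22.6 and 20.1 CPM against 26.3, 22.5 and 23.2 CPM. The TGF-beta ligands lay closer still. Tgfb2, the TGF-beta ligand with the narrowest interval, measured 136, 131 and 126 CPM against 131, 130 and 119 CPM (interval -0.25 to 0.15). Tgfb3 measured 143, 116 and 112 CPM against 114, 116 and 126 CPM. The highest Tgfb3 value in CPM was wild-type replicate 1, and the other 5 lay within 112 to 126 CPM. In TPM the Tgfb3 groups did not overlap, at 43.4, 44.6 and 42.4 TPM in wild-type and 39.5, 39.4 and 40.8 TPM in knockout handpads. Tgfb1, which is known as the TGF-beta of immune and vascular cells, measured 18.1, 17.3 and 12.5 CPM against 15.8, 16.1 and 18.2 CPM.

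**Figure D3:**
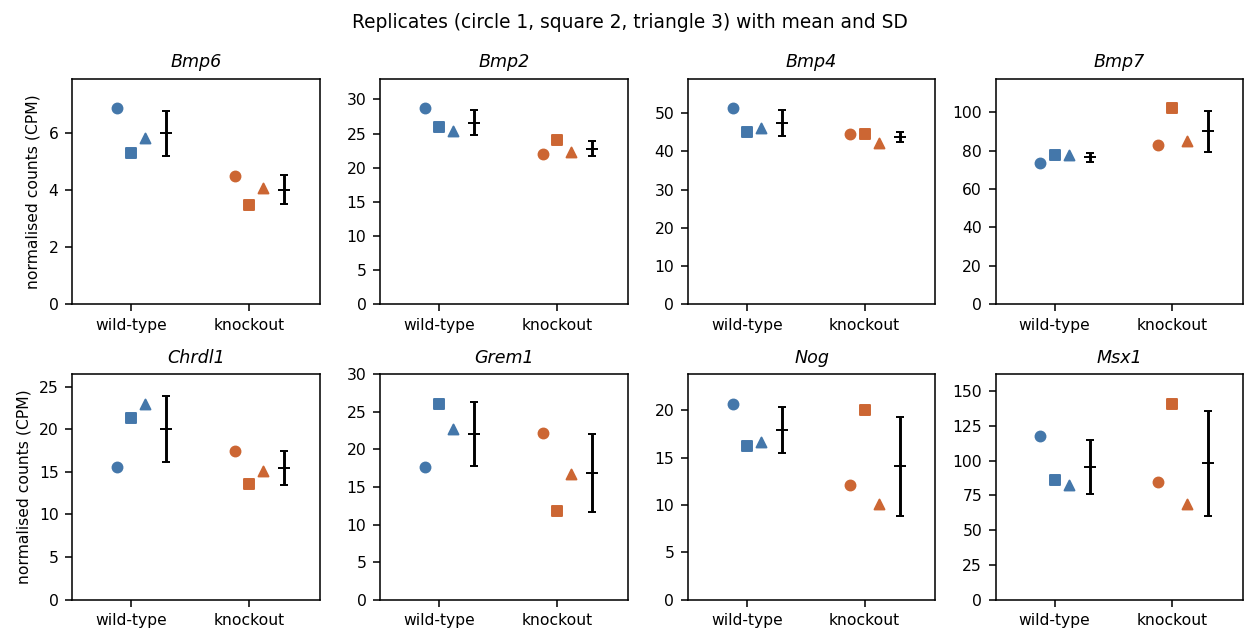
Normalised counts (CPM, axes from 0) of 8 genes in each library, with the mean and SD of each genotype (n = 3) to the right of its points. Bmp6, Bmp2, Bmp4 and Bmp7 show groups that do not overlap, while Nog and Msx1 show knockout replicate 2 apart from knockout replicates 1 and 3.

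Receptors and transducing Smads had intervals that all included 0. Bmpr1a, the broadly expressed type I BMP receptor, measured 191, 234 and 264 CPM in wild-type and 249, 227 and 202 CPM in knockout handpads. The wild-type range enclosed the knockout range (log2 fold change -0.03, SE 0.14, adjusted p = 0.997, edgeR). Bmpr1b, the type I receptor of cartilage condensations, measured 34.0, 35.8 and 42.0 CPM against 34.2, 40.1 and 26.1 CPM. Bmpr2, a type II receptor, measured 123, 142 and 152 CPM against 133, 129 and 126 CPM. Acvr1 varied least among the wild-type libraries, at 42.1, 42.6 and 42.5 CPM, and measured 46.2, 42.0 and 44.1 CPM in the knockout.

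Of the Smads activated by BMP receptors, Smad5 was the most abundant and Smad9 the least. Smad5 measured 229, 256 and 266 CPM in wild-type and 252, 269 and 236 CPM in knockout handpads (log2 fold change 0.01, SE 0.11, edgeR). Smad9 measured 10.6, 11.7 and 11.8 CPM against 10, 10.8 and 7.73 CPM (log2 fold change -0.26, SE 0.15, adjusted p = 0.838, edgeR). Its lowest value was knockout replicate 3, which was also lowest for Bmpr1b, and the Smad9 value was -0.13 without that library and -0.16 with the Y-linked covariate. Smad1 measured 61.8, 56 and 50.9 CPM against 52.4, 50.8 and 51.9 CPM. Smad4 measured 97.3, 106 and 99.9 CPM against 108, 94.3 and 98.5 CPM, and its knockout values lay on both sides of the wild-type ones.

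The inhibitors inside the cell and in its membrane overlapped between the genotypes. Smad6, an inhibitory Smad that BMP signalling itself induces, measured 29.8, 23.6 and 22.4 CPM in wild-type and 26.5, 28.8 and 26.3 CPM in knockout handpads. The 3 knockout values lay within the wild-type range (log2 fold change 0.11, SE 0.13, adjusted p = 0.967, edgeR). Smad7, which blocks both branches, measured 33.1, 30.4 and 27.3 CPM against 30.2, 32 and 27.1 CPM. Bambi, a receptor-like protein with no kinase domain, measured 51.1, 40.9 and 44.8 CPM against 44.0, 54.2 and 33.1 CPM. Knockout replicates 2 and 3 held the highest and the lowest Bambi value of all 6 libraries.

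The secreted antagonists had a median log2 fold change of -0.29 over 6 genes, and 0 of 6 passed the test. With Y-linked expression as a covariate their median was -0.066, and that of the 6 targets was -0.262 instead of -0.049. Grem1, the antagonist of the distal limb mesenchyme, measured 17.6, 26.1 and 22.7 CPM in wild-type and 22.2, 11.8 and 16.7 CPM in knockout handpads (log2 fold change -0.39, SE 0.23, adjusted p = 0.842, edgeR). The Grem1 value was -0.19 when knockout replicate 2 was left out, -0.63 when knockout replicate 1 was, -0.25 when wild-type replicate 2 was, and -0.054 with the Y-linked covariate. Nog, which encodes Noggin, an antagonist made by cartilage, measured 20.7, 16.2 and 16.7 CPM against 12.1, 20.0 and 10.1 CPM (log2 fold change -0.35, SE 0.24, adjusted p = 0.892, edgeR). The Nog value was -0.69 when knockout replicate 2 was left out, -0.15 when knockout replicate 3 was, -0.23 when wild-type replicate 1 was, and -0.58 with the Y-linked covariate. Knockout replicate 2 was lowest of all libraries for Grem1 and second to wild-type replicate 1 for Nog, so these antagonists differed in opposite directions in that library.

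Chrdl1, a chordin-like antagonist on the X chromosome, measured 15.6, 21.3 and 23.0 CPM in wild-type and 17.5, 13.6 and 15.1 CPM in knockout handpads. Wild-type replicate 1 lay among the knockout values. The log2 fold change was -0.38 (SE 0.17, adjusted p = 0.705, edgeR), -0.53 without wild-type replicate 1 (adjusted p = 0.102, edgeR) and 0.01 with Y-linked expression as a covariate. The adjusted p of 0.102 was the lowest of any of the 32 genes over the 17 alternative settings, and it came from the fit in which genotype followed Y-linked expression. Chrd, which encodes Chordin, measured 18.7, 21.9 and 20.1 CPM against 16.3, 15.8 and 19.8 CPM, with a log2 fold change of -0.23 that was -0.097 with the Y-linked covariate. Fst, which encodes the activin and BMP binder follistatin, measured 35.4, 27.9 and 30.3 CPM against 34.7, 33.1 and 33.9 CPM. Twsg1, a partner of Chordin, measured 193, 221 and 223 CPM against 225, 207 and 207 CPM.

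The transcriptional targets varied among libraries of the same genotype. Id1 measured 117, 79.1 and 72.6 CPM in wild-type and 80.3, 97.6 and 83.2 CPM in knockout handpads. Id3 measured 276, 197 and 209 CPM against 229, 270 and 221 CPM. In both, wild-type replicate 1 and knockout replicate 2 were the highest libraries. The log2 fold changes were -0.04 for Id1 and 0.08 for Id3 (SE 0.18 and 0.15, edgeR), and both depended on the setting. Id1 was 0.20 without wild-type replicate 1 and -0.47 with the Y-linked covariate (adjusted p = 0.196, edgeR). Id3 was 0.24 and -0.23 in the same fits. With the covariate all 6 targets had negative values, and 0 of 6 passed the FDR. The wild-type side of that fit rests mainly on wild-type replicate 1, the highest library for 4 of the 6 targets in CPM. Id2 measured 136, 119 and 121 CPM against 124, 123 and 114 CPM, and Id4 31.1, 25.5 and 28.4 CPM against 27.9, 21.1 and 27.2 CPM. In TPM the Id2 groups did not overlap, at 110, 113 and 115 TPM in wild-type and 104, 107 and 94.8 TPM in knockout handpads.

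Msx1 and Msx2, homeobox genes of the interdigit mesenchyme and of surface epithelium, split the knockout libraries. Msx1 measured 118, 85.8 and 82.8 CPM in wild-type and 84.9, 141 and 68.5 CPM in knockout handpads. Msx2 measured 29.8, 27.9 and 23.1 CPM against 26.7, 33.7 and 17.5 CPM. In both, knockout replicate 2 was the highest and knockout replicate 3 the lowest of the 6 libraries. Msx1 differed by 2.05-fold among the knockout libraries, and its log2 fold change was 0.04 (SE 0.25, edgeR). Without knockout replicate 2 it was -0.32.

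Of the 32 genes, 6 differed by more than 1.5-fold among the knockout libraries, namely Bmpr1b, Bambi, Grem1, Nog, Msx1 and Msx2. Among the wild-type libraries only Id1 did. In 25 of the 32 genes the fold change between genotypes was smaller than the range among the knockout libraries. The range is taken over single libraries and the fold change over means of 3, so a larger range is usual for small differences. The share over all genes was not computed. In CPM, wild-type replicate 1 held the highest value for 14 of the 32 genes, knockout replicate 3 the lowest for 10 and knockout replicate 2 the lowest for 9. This ranking depended on the unit. Smad7 and Fst were highest in wild-type replicate 1 in CPM but lowest there in TPM, at 12.2 and 15.3 TPM. Id1 was highest there in both units. Cartilage markers also varied between libraries, and their sum was lower in every knockout than in every wild-type library. The 5 markers had log2 fold changes of -0.54 to -0.38, and 0 of 5 passed the FDR (edgeR). The sum of Col2a1, Acan, Sox9, Col9a1 and Matn1 was 2880 to 4190 CPM in the wild-type libraries, 2760 and 2740 CPM in knockout replicates 1 and 2, and 1780 CPM in knockout replicate 3. None of these markers was at 0, 1 of 5 had groups that did not overlap, and their part in the values of Nog, Bmpr1b, Smad9 and the Msx genes was not tested.

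**Figure D4:**
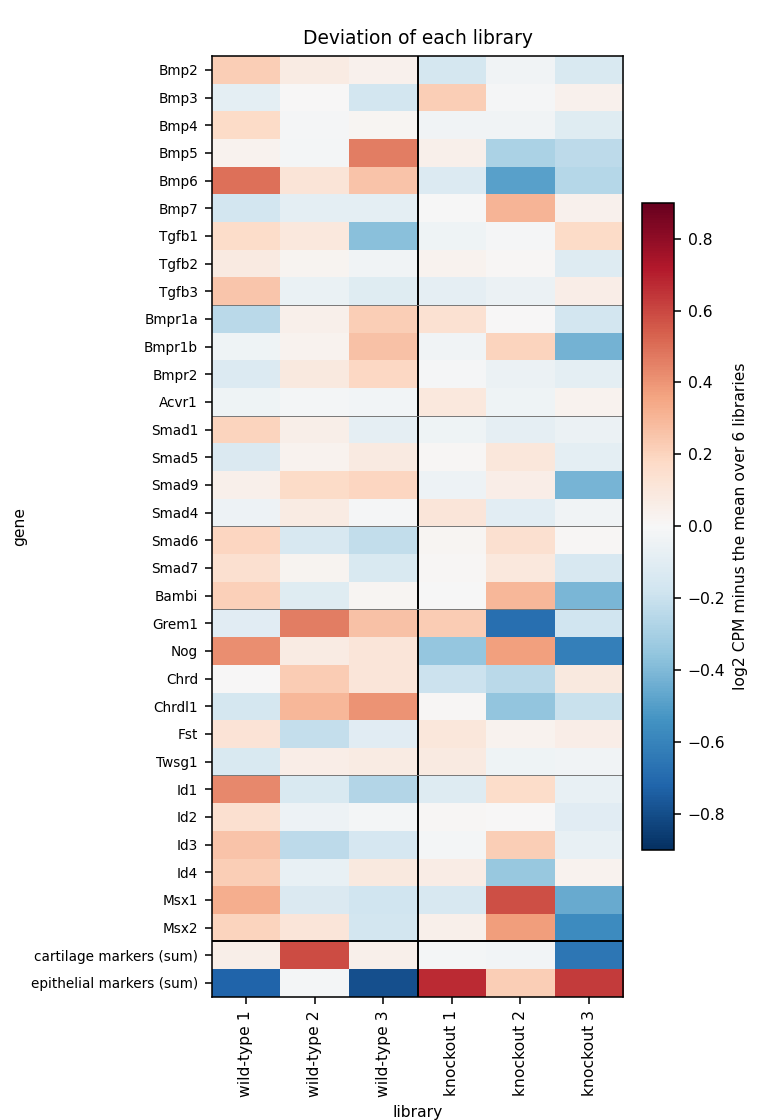
Log2 CPM of each gene in each library minus its mean over the 6 libraries (red higher, blue lower), with the summed cartilage and epithelial markers in the bottom rows. Knockout replicates 2 and 3 differ in Msx1, Msx2, Nog and Bambi. The summed epithelial markers are higher, and the summed cartilage markers lower, in each knockout than in each wild-type library.

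In 26 of the 32 genes 1 main transcript held at least 50% of the TPM of the gene in every library, and in 14 of them at least 95%. In the other 6 genes, Chrdl1, Smad4, Acvr1, Smad7, Id2 and Fst, the main transcript fell under 50% in some library. Acvr1 varied most, from 36.7% to 83.0% for its transcript of 2891 bases, with 36.7% in wild-type replicate 2 and 46.4% in knockout replicate 1. That share did not follow genotype, and the summed Acvr1 counts of these libraries stayed near those of the others. The division between transcripts is an estimate, since isoforms share most of their sequence.

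Beyond the 32 genes, 87 other genes of BMP, activin and TGF-beta signalling were listed, of which 85 passed the filter. Of these 85, 0 passed the FDR with edgeR, 8 had an unadjusted p under 0.05 (4 higher and 4 lower in the knockout; 9.41% against 7.22% of all genes), and the median log2 fold change was -0.04. DESeq2 and the likelihood ratio test of edgeR each called 1 of the 85, Itgb6, against 1.27% and 1.54% of all genes. Negative fold changes made 51.2% of all genes and 46 of these 85. By role they were 8 of 14 ligands, 3 of 12 receptors and co-receptors, 0 of 2 Smads, 8 of 15 antagonists, 7 of 16 processing and matrix genes, 6 of 10 modulators inside the cell and 14 of 16 targets.

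Itgb6, the epithelial integrin subunit that releases active TGF-beta from its latent complex, had the smallest p-value of that list. It measured 3.62, 2.89 and 3.11 CPM in wild-type and 5.83, 4.78 and 6.06 CPM in knockout handpads. All knockout values lay above all wild-type values. The log2 fold change was 0.79 (SE 0.18, adjusted p = 0.178, edgeR quasi-likelihood test), with an adjusted p of 0.0469 by the likelihood ratio test and 0.00947 by DESeq2. The largest adjusted p under any alternative was 0.619, without knockout replicate 1. The authors' deposited table gives it a log2 fold change of 0.8 and an FDR of 0.0437. The epithelial markers, with the sums given above, separated the genotypes in the same direction, and their part in the Itgb6 values was not tested.

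The next 3 of that list were Gdf15, Runx2 and Acvrl1. Gdf15, a divergent member of the ligand family that responds to cell stress, measured 0.106, 0.100 and 0.0759 CPM against 0.406, 0.211 and 0.255 CPM, on 3 to 20 counts per library (adjusted p = 0.362, edgeR). Runx2, a transcription factor of osteoblasts and maturing cartilage, measured 38.7, 41.2 and 45.4 CPM against 32.7, 31.5 and 19.0 CPM (log2 fold change -0.59, SE 0.19, adjusted p = 0.45, edgeR). Its lowest value was again knockout replicate 3, without which the Runx2 value was -0.38. Runx2 is also 1 of 4 bone markers, with Sp7, Alpl and Col1a1; Runx2 and Sp7 were lower in every knockout than in every wild-type library, their sum with the others ran from 1660 to 2820 CPM in wild-type and from 1430 to 2940 CPM in knockout handpads, none was at 0, and the part of bone cells was not tested. Acvrl1, a type I receptor of blood vessels, measured 21.2, 18 and 18 CPM against 22.8, 22.5 and 26.2 CPM (log2 fold change 0.32, SE 0.12, adjusted p = 0.535, edgeR), and its value was 0.16 with the Y-linked covariate. The endothelial markers Pecam1, Cdh5, Kdr, Tek and Emcn summed to 273 to 299 CPM in wild-type and 326 to 346 CPM in knockout handpads, with 3 of 5 not overlapping and 0 of 5 past the FDR, and their part in the Acvrl1 values was not tested.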

How the data were processed

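The 6 handpad libraries, 3 wild-type and 3 Grhl3 knockout, were grouped by their titles. FastQC, kallisto and the build mm10 are named, without versions, per the submitters' processing notes. Per the file headers, the deposited transcript tables hold estimated counts, not normalized, and TPM, a length-corrected share. The authors' deposited comparison holds log2 fold changes, a likelihood ratio score and p-values with FDR. Transcripts were matched to GENCODE M21 by unversioned identifier (110203 of 111462), and counts and TPM were summed per gene; counts were then rounded. Unmatched transcripts held 0.504% to 0.566% of counts. Genes passing filterByExpr (minimum count 10, total 15) were tested with edgeR 4.0.16 in R 4.3.3 (TMM, quasi-likelihood test, genotype only, Benjamini-Hochberg). CPM use TMM-scaled library sizes, and intervals use the fit's standard errors at 95%. The script was tested on simulated data. Alternatives used DESeq2 1.42.0, limma 3.58.1, other scalings and filters, length offsets, a replicate block, a Y-linked covariate and each library left out; the likelihood ratio test was added after seeing the data. The members and lists were chosen with earlier results of these data known. The rule for named genes takes all members, and the other pathway genes that passed the FDR plus the 4 with the smallest p. Reads carry no molecular identifiers, so counts are not independent molecules.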

Additional observations from a re-analysis of the deposited data

How the results depend on the processing

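None of the 32 genes passed the FDR in any of the 17 alternative settings, and the median log2 fold change of the 32 lay between -0.159 with the Y-linked covariate and -0.004 without knockout replicate 3. The number of genes called over all genes, 73, became 118 with no filter, 301 with DESeq2, 45 with limma-voom, 45 with effective length offsets, 260 with the likelihood ratio test and 10 to 206 with 1 library left out. The highest count came without wild-type replicate 1 and the lowest without wild-type replicate 3; leaving out wild-type replicate 2 gave 45, knockout replicate 1 gave 17 and knockout replicate 3 gave 22. The count of other pathway genes called was 1 with DESeq2 and 1 with the likelihood ratio test. At an unadjusted p under 0.05 the 32 genes gave 6 without wild-type replicate 1, against 17.4% of all genes in that fit, and 5 without knockout replicate 1, against 5.07%. The labels do not say whether the replicate numbers pair the samples. Same-numbered deviations correlated at -0.244, -0.0916 and -0.162, and differently numbered ones at -0.117 to 0.22. The deviations were taken from the mean of each group of 3 libraries, so these values cannot settle pairing. With the number as a replicate block 47 genes were called, 0 of them among the 32, and Msx1 was -0.013.

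Of the 32 genes 17 changed sign in some setting without passing the FDR, and the cause was not tested. Twsg1 was -0.00033 with RLE scaling, -0.027 with plain library totals and -0.002 with length offsets. Smad5 was -0.019 with plain totals and -0.009 with length offsets, where Smad7 was 0.044, and Msx1 was -0.009 with limma-voom. With the Y-linked covariate Tgfb1 was -0.141, Bmpr1a 0.257, Bmpr2 0.091, Smad4 0.043, Smad6 -0.155, Chrdl1 0.008, Fst -0.078, Id3 -0.228 and Msx1 -0.295. With 1 library left out the ranges were -0.13 to 0.062 for Tgfb3, -0.047 to 0.059 for Smad5, -0.096 to 0.047 for Smad7, -0.245 to 0.107 for Bambi, -0.059 to 0.036 for Twsg1, -0.177 to 0.199 for Id1, -0.093 to 0.004 for Id2 and -0.29 to 0.164 for Msx2. They were -0.065 to 0.031 for Smad4, -0.018 to 0.244 for Id3, -0.317 to 0.241 for Msx1, -0.09 to 0.164 for Tgfb1 and -0.14 to 0.081 for Bmpr1a. Grhl3 kept its direction in every setting and missed the FDR with limma-voom, with the Y-linked covariate and when wild-type replicate 3 or any 1 knockout library was left out.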
